A study of Mus musculus with 8 samples.

Results

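The nuclear-encoded genes of oxidative phosphorylation were taken by name from RNA-seq of cultured LLC cells, as protein-coding genes whose symbol begins with Nduf, Uqcr or Atp5, or is Sdha to Sdhd, or begins with Cox and a digit from 4 to 8. The count table holds 55487 gene models, of which 94 met this rule. They carry 93 symbols, because Atp5o has a second gene model. There were 38 genes of complex I, 8 complex I assembly factors named Ndufaf, 4 of complex II, 8 of complex III, 18 of complex IV and 18 of complex V. Of these, 86 passed the filter on low counts and were tested: 37, 8, 4, 8, 12 and 17 in the same order.

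LLC cells are a mouse Lewis lung carcinoma line, grown here in DMEM with serum. The study compared wild-type cells with ΔAgo2 cells, which lack Argonaute 2, a protein that binds small RNAs and silences matching transcripts. There were 4 libraries of each genotype, all given the same batch label, and no further treatment was given to either group. The ΔAgo2 line was made with a lentiviral CRISPR-Cas9 vector carrying 1 guide against Ago2, followed by puromycin selection. The study sorted single cells into clones and picked a ΔAgo2 clone for engraftment, but the labels do not say which clone or pool the cultured libraries came from, nor whether the wild-type cells carried a control vector. The libraries are named biological replicates of 1 line per genotype, so p-values measure the spread between these cultures.

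Oxidative phosphorylation takes place in the inner mitochondrial membrane. Complexes I and II pass electrons from NADH and succinate to ubiquinone, complex III passes them on to cytochrome c, and complex IV, cytochrome c oxidase, passes them to oxygen. Complexes I, III and IV pump protons, and complex V, the ATP synthase, uses the gradient to make ATP. Most subunits are encoded in the nucleus, but complexes I, III, IV and V each also hold subunits encoded by mitochondrial DNA. Transcription factors of the NRF1 and ETS (GABP) families are known to act at many nuclear promoters of the pathway.

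The 250 bases before the RefSeq start site on GRCm38 are shown for 3 promoters, chosen because they hold both the NRF1 and ETS cores, the NRF1 core alone and neither. Capitals mark the NRF1 core searched, GCGCATGC, and the ETS core searched, CCGGAAG, on either strand. The Cox6a1 window lies at chr5:115348959-115349208 on the minus strand, the Ndufa11 window at chr17:56717512-56717761 on the plus strand and the Cox8a window at chr19:7217617-7217866 on the minus strand.
Cox6a1: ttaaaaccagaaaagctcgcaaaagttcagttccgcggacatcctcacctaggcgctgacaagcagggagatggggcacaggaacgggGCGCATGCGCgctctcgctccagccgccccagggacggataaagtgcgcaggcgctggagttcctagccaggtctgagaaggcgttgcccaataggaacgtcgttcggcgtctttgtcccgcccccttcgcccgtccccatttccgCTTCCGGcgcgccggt
Ndufa11: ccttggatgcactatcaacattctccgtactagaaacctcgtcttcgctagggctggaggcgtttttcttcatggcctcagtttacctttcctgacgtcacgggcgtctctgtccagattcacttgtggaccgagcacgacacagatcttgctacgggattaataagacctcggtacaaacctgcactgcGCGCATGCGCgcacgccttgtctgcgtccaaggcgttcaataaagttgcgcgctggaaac
Cox8a: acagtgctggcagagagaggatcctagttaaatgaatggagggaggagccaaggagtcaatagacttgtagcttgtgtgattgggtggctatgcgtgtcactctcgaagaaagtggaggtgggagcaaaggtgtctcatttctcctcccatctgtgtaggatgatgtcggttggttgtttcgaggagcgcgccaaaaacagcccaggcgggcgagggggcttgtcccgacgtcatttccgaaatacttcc
The NRF1 core in Cox6a1 and Ndufa11 sits in the palindrome GCGCATGCGC, which matches on both strands at overlapping positions. Cox6a1 also holds an ETS core 16 bases before the start, and Cox8a, the most abundant of all these genes, holds neither.

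A promoter window was found for 76 of the 93 symbols, 2 of them by synonym. The NRF1 core was in 9 of the 76 (11.8%), against 2.26% of 32841 windows of all genes and 2.93% of 21255 windows of protein-coding genes. The ETS core was in 13 (17.1%), against 6.91% of all windows and 8.99% of those of protein-coding genes. At least 1 of these cores was in 20 members (26.3%), against 8.85% and 11.5%. The CCAAT box was in 34 members (44.7%) and 35.4% of protein-coding windows, while TATAAA was in 6 (7.89%) and 11.6%. The member windows had a median GC content of 56.8%, against 55.6% for protein-coding windows. These shares describe letters in fixed windows and were not tested.

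Totals ran from 39628101 to 68530912 counts per library. Wild-type replicate 4 stood apart from all others: mitochondrially encoded mRNAs made up 0.521% of its counts and between 2.32% and 4.41% in the other 7 libraries. Ago2 mRNA lay at 119 to 520 CPM (counts scaled to a common library total with TMM factors) in wild-type and 293 to 408 in ΔAgo2 libraries, so its level did not separate the groups and cannot check the labels. Of the lung lineage markers, Nkx2-1, Sftpb and Scgb1a1 had 0 counts and Sftpc at most 1. Napsa, also on that list, had 0.854 to 1.32 CPM in wild-type and 0.114 to 0.319 CPM in ΔAgo2. Its log2 fold change was -2.35, with an adjusted p of 0.0824 (edgeR, Benjamini-Hochberg). The epithelial markers were mixed: Epcam had at most 1 count and Cdh1 at most 9. By contrast, Krt8, a keratin of simple epithelia, had 74.4, 139, 38.2 and 654 CPM in wild-type replicates 1 to 4. Krt18, another such keratin, had 194, 171, 75.2 and 601 CPM. Krt19 had 0.149 to 3.54 CPM in wild-type. Vim, a mesenchymal intermediate filament, averaged 4336 CPM in wild-type libraries (3072 to 6076, highest in replicate 4). Of the immune markers, Ptprc had at most 2 counts and Cd3e 0, but Cd68, a lysosomal protein abundant in macrophages, had 5.30 to 38.3 CPM in wild-type and 4.56 to 16.5 CPM in ΔAgo2.

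No oxidative phosphorylation gene passed the test for a difference between the genotypes. With all 8 libraries, 0 of 86 passed at 0.05 after Benjamini-Hochberg adjustment over 14228 genes (edgeR, quasi-likelihood), against 0.295% of all genes tested. At an unadjusted p under 0.05, 0 were higher in ΔAgo2, against 2.72% of all genes, and 0 were lower, against 4.62%. DESeq2 also found 0 past an adjusted p of 0.05, against 290 of the 14228 genes. Even so, 76 of the 86 had a log2 fold change below 0, against 8364 of the 14228 genes tested. The median was -0.40, against -0.11 over all genes tested. The medians were -0.49 for complex I, -0.30 for its assembly factors, -0.50 for complex II, -0.56 for complex III, -0.46 for complex IV and -0.42 for complex V.

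The size of these negative medians depended largely on 1 library, though most genes lay below 0 without it too. Without wild-type replicate 4, 55 genes lay below 0 and 31 above, against 7721 below 0 of all 14228 genes. The median was -0.060, against -0.036 over all genes. The medians became -0.071 for complex I, -0.15 for complex II, -0.046 for complex III, -0.097 for complex IV and 0.034 for complex V, and only the median of the complex I assembly factors, -0.27, stayed within 0.05 of its former value. Between the fits, 29 of the 86 genes (33.7%) changed sign, against 28.7% of all genes tested. In the fit of 7 libraries, Cox6a2 had the lowest log2 fold change, -1.55 with 95% limits of -3.91 and 0.81, and the other 85 genes lay between -0.38 (Ndufaf1) and 0.49 (Ndufb2). Again 0 genes reached an adjusted p under 0.05, against 0.682% of all genes tested. At an unadjusted p under 0.05, 0 were higher, against 5.53%, and 0 were lower, against 6.94%.

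**Figure D1:**
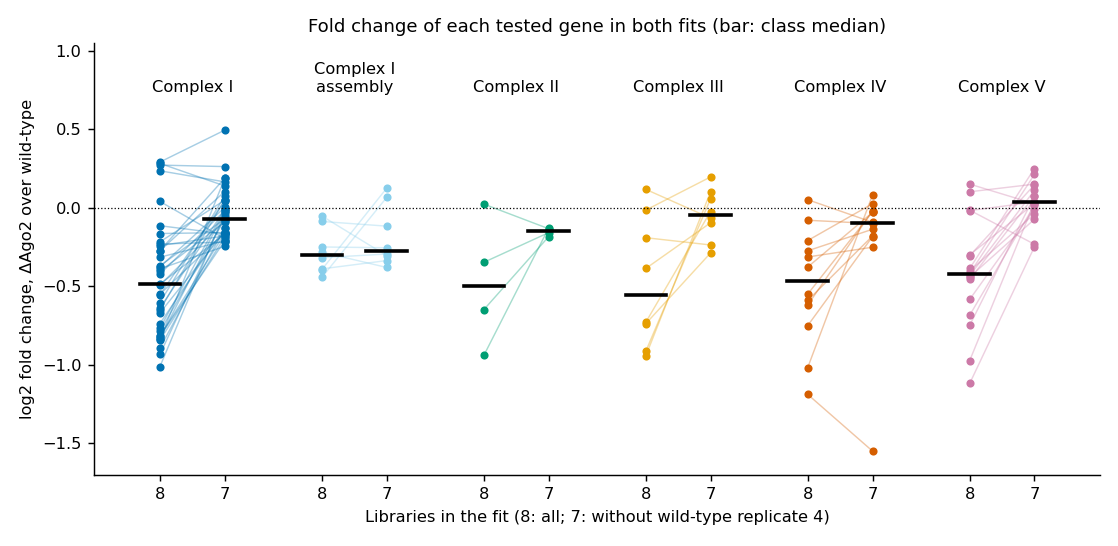
Each point is the log2 fold change (ΔAgo2 over wild-type, vertical axis) of 1 of the 86 tested genes, by class, in the fit of all 8 libraries and in the fit of 7 without wild-type replicate 4, with a line joining both values and a bar at the class median. The complex I median moves from -0.49 to -0.071 and the complex V median from -0.42 to 0.034, while that of the assembly factors stays near -0.30.

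Precision differed between both fits. The median standard error of a member's log2 fold change was 0.34 with all 8 libraries and 0.158 without wild-type replicate 4, against 0.418 and 0.267 over all genes. The 95% limits of the log2 fold change lay wholly between -1 and 1 for 32 of the 86 genes with all libraries and for 83 without replicate 4. Over all 14228 genes tested, these numbers were 3802 and 8022. Within a group these genes varied little: the median SD of log2 CPM was 0.148 in ΔAgo2 and 0.180 in wild-type replicates 1 to 3, against 0.234 and 0.427 over all genes. With replicate 4 included, the wild-type SD was 0.647, against 0.783 over all genes.

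Replicate 4 stayed in the fit when another wild-type library was left out. At an unadjusted p under 0.05, 2 genes were lower in ΔAgo2 without replicate 1 (4.74% of all genes), 9 without replicate 2 (8.18%) and 10 without replicate 3 (6.51%). None of these had an adjusted p under 0.05 (edgeR, Benjamini-Hochberg).

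The summed level of each class shows the same library. Complex I genes summed to 2301, 2147, 2085 and 5284 CPM in wild-type replicates 1 to 4, and to 2028, 2253, 2069 and 2039 CPM in ΔAgo2 replicates 1 to 4. Complex V genes summed to 3419, 3805, 3259 and 8929 CPM in wild-type and to 3413, 3782, 3491 and 3557 CPM in ΔAgo2. In both, wild-type replicate 4 was far above the other 7 libraries, which overlapped between genotypes. Complex III (702 to 817 CPM) and complex IV (1229 to 1598 CPM) did likewise, with replicate 4 at 2042 and 3378 CPM. In TPM, replicate 4 was again the highest library for complexes I to V. For complex II the difference was small in TPM, at 989 in replicate 4 against 967 in wild-type replicate 2. The sum of the complex I assembly factors did not follow, although in replicate 4 single factors deviated both ways. The factors summed to 128, 117, 120 and 137 CPM in wild-type and 95.5, 107, 101 and 110 CPM in ΔAgo2. The groups thus did not overlap in CPM, with or without replicate 4. In TPM they summed to 208, 227, 206 and 188 in wild-type and 189, 203, 182 and 202 in ΔAgo2, and there the groups overlapped through replicate 4. No single assembly factor passed the test.

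**Figure D2:**
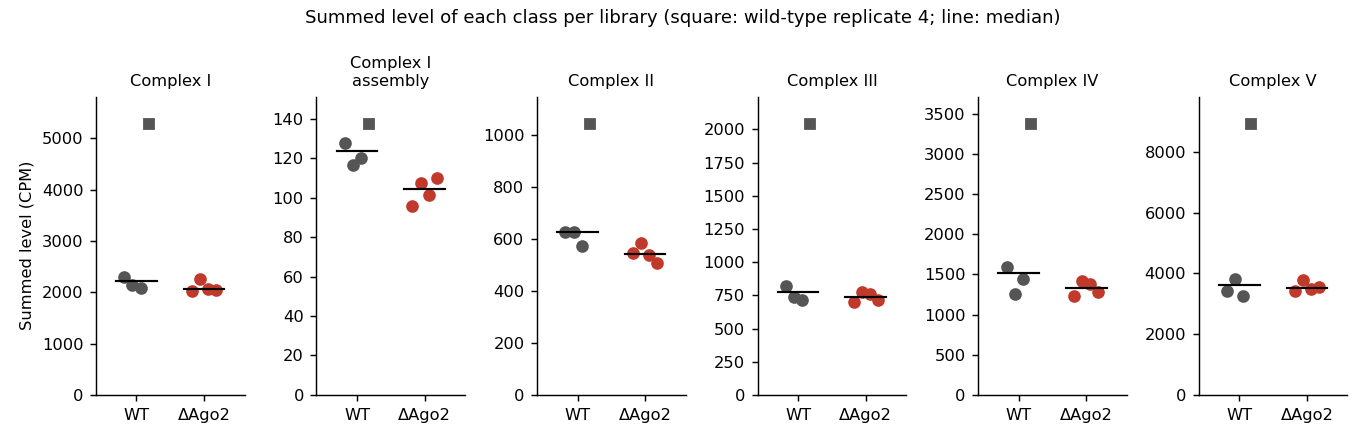
Each point is the summed CPM of a class (vertical axis, starting at 0) in 1 library, for wild-type (grey, WT) and ΔAgo2 (red), with a line at the group median and a square for wild-type replicate 4. On this CPM scale, the square lies far above the other 7 libraries for complexes I to V, from 1044 CPM for complex II to 8929 CPM for complex V. It lies close to the wild-type points for the assembly factors.

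Wild-type replicate 4 was the highest of the 8 libraries for 61 of the 86 genes, against 35.4% of all genes tested, and the lowest for 10, against 37.1%. Relative to the mean of wild-type replicates 1 to 3 in log2 CPM, it deviated by a median of 1.15 over these genes and of -0.036 over all genes. The median deviation was 1.19 for complex I, 0.98 for complex II, 1.11 for complex III, 0.90 for complex IV and 1.48 for complex V, but 0.024 for the assembly factors. Single assembly factors deviated both ways, from -1.52 (Ndufaf4) to 1.44 (Ndufaf8). The median GC content of their transcripts was 47.5%, against 49.9% over all members. For comparison, 79 genes of cytosolic ribosomal proteins, which are also short and abundant, had a median deviation of 0.84, and 1755 tested genes with a longest transcript under 1200 bases one of 0.54.

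The deviation of replicate 4 followed the GC content of the transcript. In the 29 members lowest in GC (36.96 to 48.10%) its median was 0.075, in the middle 28 (48.41 to 52.21%) 1.09, and in the 29 highest (52.43 to 63.35%) 1.66. Over the 86 genes, Spearman's rho of GC content and deviation was 0.61, and over all 14228 genes 0.72. The points of these correlations share the same 4 libraries. Members and all genes nevertheless had nearly the same median GC content, 49.9% and 49.6%, and after each library's trend on GC content was removed, the members' median deviation was still 1.00, or 0.70 after GC content and length together. The part of GC content and of the low mitochondrial share of replicate 4 in these values was not tested further.

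**Figure D3:**
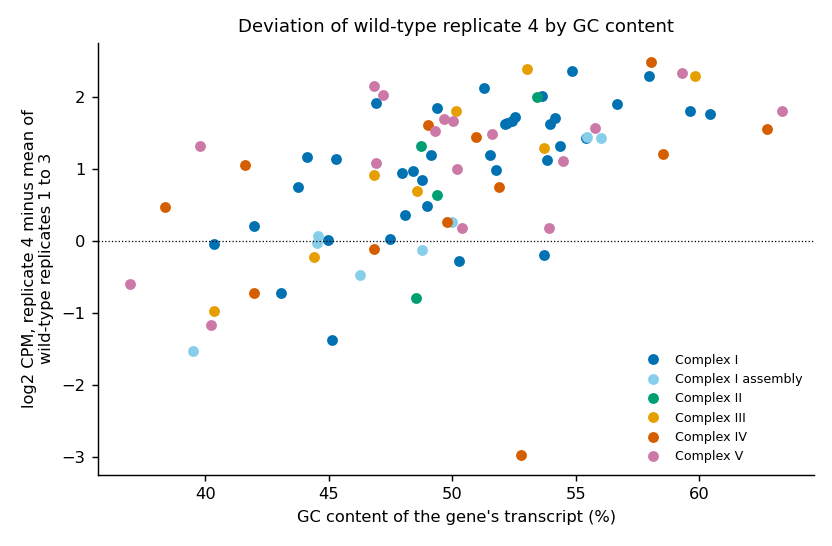
Each point is 1 of the 86 tested genes, coloured by class, with the GC content of its transcript (%, horizontal axis) and the difference in log2 CPM between wild-type replicate 4 and the mean of wild-type replicates 1 to 3 (vertical axis). Genes with high GC content lie mostly above 0, with a median of 1.66 in the 29 highest in GC against 0.075 in the 29 lowest, and Cox6a2 lies alone at -2.97.

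Replicate 4 was the highest library for nuclear and the lowest for mitochondrial transcripts of the pathway. The 94 nuclear-encoded genes took 0.883, 0.964, 0.804 and 1.65% of the counts of wild-type replicates 1 to 4, and 0.855, 0.947, 0.834 and 0.845% in ΔAgo2. The mitochondrially encoded mRNAs took 4.41, 2.90, 3.91 and 0.521% in wild-type and 2.80, 2.32, 2.66 and 2.34% in ΔAgo2. Counts were uneven among these mRNAs: mt-Co1 had 2789 to 29068 CPM over all libraries. Far lower were mt-Co2 at 0.931 to 7.89, mt-Co3 at 3.14 to 13.2 and mt-Atp6 at 0.373 to 3.60 CPM. The mitochondrial share and the ratio below thus rest mainly on mt-Co1 and other well-counted genes. The median fold change below gives low-counted genes equal weight. The reason was not tested. The ratio of nuclear to mitochondrial counts was 0.200, 0.333, 0.206 and 3.16 in wild-type and 0.305, 0.408, 0.313 and 0.361 in ΔAgo2. Wild-type replicates 1 to 3 overlapped with ΔAgo2 in this ratio, and replicate 4 lay far above. Of 12 tested mitochondrially encoded subunit genes, 0 had an adjusted p under 0.05 in either fit (edgeR, Benjamini-Hochberg), against 0.295% and 0.682% of all genes. Their median log2 fold change was -0.18, or -0.44 without replicate 4. Without replicate 4, mt-Nd5 and mt-Nd6, both complex I subunits, had log2 fold changes of -0.91 and -1.24, with unadjusted p = 0.0096 and 0.014 from the same edgeR fit.

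**Figure D4:**
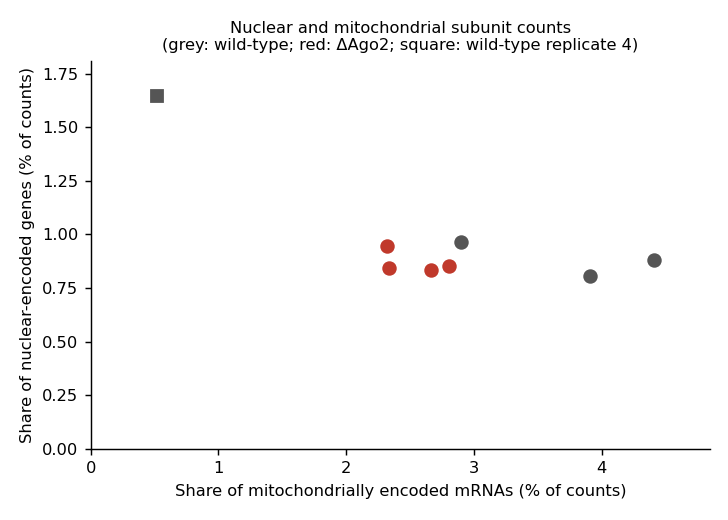
Each point is 1 library, with the share of its counts on mitochondrially encoded mRNAs (%, horizontal axis) and on the 94 nuclear-encoded genes (%, vertical axis), both axes starting at 0. Wild-type replicate 4 (square) sits alone at 0.521% and 1.65%, and the other 7 libraries lie between 0.804% and 0.964% on the vertical axis.

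These genes were abundant and short. On the TPM scale, which corrects for gene length, the 86 tested genes had a median of 156, against 17.0 over all genes tested, and 57 had a mean over 100. Their longest transcripts had a median length of 1171 bases, against 3123 over all genes. Of the summed TPM of the members, complex I took 28.8 to 29.7%, complex II 3.77 to 5.24%, complex III 10.9 to 11.9%, complex IV 24.2 to 29.1% and complex V 24.7 to 28.4% over the 8 libraries. Assembly factors lay lower, with a median of 22.5 TPM and 0.718 to 1.29% of the sum, lowest in wild-type replicate 4. The 93 genes lie on 19 chromosomes, 3 of them on X.

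Ndufb10, an accessory subunit of the membrane arm (chr17:24722060-24724478, GRCm38), had 49.4, 50.2, 57.1 and 161 CPM in wild-type and 45.6, 51.7, 38.4 and 44.3 CPM in ΔAgo2. Only wild-type replicate 4 was far from the others. Its log2 fold change was -0.82 ± 0.40 (SE) with all libraries, the smallest p of complex I (unadjusted p = 0.0692, edgeR), and -0.21 ± 0.15 without replicate 4. Ndufa2, the most abundant subunit of this complex by TPM (354.9 on average), had a log2 fold change of -0.41, and -0.091 without replicate 4.

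Ndufa4, first named for complex I and since assigned to complex IV, was among the few genes above 0 (chr6:11900292-11907497). It had 113, 142, 122 and 121 CPM in wild-type and 139, 162, 151 and 149 CPM in ΔAgo2. The groups overlapped only through wild-type replicate 2. The log2 fold change was 0.27 ± 0.22 (SE) with all libraries and 0.26 ± 0.15 without replicate 4, and a correction for GC content turned it to -0.41. Its paralog Ndufa4l2, known as a hypoxia-induced gene, had 1 to 26 counts per library and was not tested.

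Ndufs1, which carries iron-sulfur clusters of the peripheral arm (chr1:63143596-63176833), went the other way in replicate 4. It had 121, 153 and 118 CPM in wild-type replicates 1 to 3, 50.2 in replicate 4, and 107 to 118 CPM in ΔAgo2. Replicate 4 was the lowest of all. Ndufs8 and Ndufv1, also of the peripheral arm, had 245 and 415 CPM in replicate 4, against 39.5 to 52.9 and 103 to 116 CPM in wild-type replicates 1 to 3. Subunits of the same arm thus deviated in opposite directions in that library. Ndufs1 transcripts have 45.1% GC, those of Ndufs8 54.8% and those of Ndufv1 56.7%. Some other complex I genes did not follow this order. In replicate 4, Ndufb8 (46.9% GC) deviated by 1.92 and Ndufc1 (44.1%) by 1.16, while Ndufa6 (53.7%) deviated by -0.19. The part of GC content in these genes was not tested.

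The complex I assembly factors all had log2 fold changes below 0, from -0.44 to -0.053, and 6 of 8 lay below 0 without replicate 4. Over all 14228 genes tested, 8364 lay below 0, and 7721 without replicate 4. Ndufaf7, a methyltransferase that modifies a core subunit (chr17:78937136-78948052), had 32.4, 32.3, 36.4 and 35.4 CPM in wild-type and 26.8, 31.4, 24.1 and 27.2 CPM in ΔAgo2. The groups did not overlap in CPM, but in TPM they did, at 22.44 to 36.09 in wild-type and 23.26 to 32.55 in ΔAgo2. The log2 fold change was -0.32 ± 0.23 (SE), and -0.29 ± 0.16 without replicate 4. The adjusted p was 0.757 (edgeR, Benjamini-Hochberg), and 0.481 without replicate 4. Ndufaf8, the most abundant of them at 50.4 TPM, turned from -0.44 to 0.065 when replicate 4 was left out.

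In 4 of the 86 genes the genotypes did not overlap in CPM, against 6.07% of all genes tested. They were Ndufb5, Ndufs5, Ndufaf7 and Uqcr10, all lower in ΔAgo2, against 424 of the 14228 genes that were lower in this way. In TPM the genotypes overlapped for Ndufb5 and Ndufaf7. Without replicate 4 Ndufaf1 joined them, making 5, against 12.1% of all genes. All 5 were lower, against 867 of the 14228 genes.

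Complex II, succinate dehydrogenase, also belongs to the tricarboxylic acid cycle and has no mitochondrially encoded subunit. Sdha, the flavoprotein, had 223, 283, 246 and 145 CPM in wild-type and 237, 239, 218 and 217 CPM in ΔAgo2. Sdhb, the iron-sulfur subunit, had 86.5, 77.2, 75.7 and 318 CPM in wild-type and 71.5, 79.3, 72.8 and 66.7 CPM in ΔAgo2. Replicate 4 was thus the lowest wild-type library for one catalytic subunit and the highest for the other. The log2 fold changes were 0.023 ± 0.26 (SE) for Sdha and -0.94 ± 0.47 for Sdhb, and without replicate 4 they were -0.13 ± 0.15 and -0.13 ± 0.13. The membrane anchors Sdhc and Sdhd had -0.65 and -0.35, and -0.18 and -0.16 without replicate 4.

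In complex III the smallest p belonged to Uqcr10, a small subunit of the bc1 complex (chr11:4701973-4704342). It had 81.6, 68.6, 70.0 and 179 CPM in wild-type and 56.0, 61.9, 63.3 and 58.0 CPM in ΔAgo2. All wild-type libraries were above all ΔAgo2 libraries, and replicate 4 was far above the rest. The log2 fold change was -0.74 ± 0.34 (SE), and -0.29 ± 0.13 without replicate 4. The adjusted p was 0.678 (edgeR, Benjamini-Hochberg), and 0.422 without replicate 4. Uqcrb, which binds ubiquinone, moved from 0.12 to -0.067. Cyc1, the cytochrome c1 subunit that the naming rule leaves out, had 127, 127, 125 and 544 CPM in wild-type and 96.8 to 114 CPM in ΔAgo2. Its log2 fold change was -1.08, and -0.21 without replicate 4.

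Complex IV is the complex whose nuclear subunits come in tissue isoforms, and these cells held the widely expressed form of each pair. Cox4i1 ran from 381 to 1567 TPM over the 8 libraries, and its hypoxia- and lung-associated counterpart Cox4i2 had 1 count in 1 library. Cox6a1 ran from 463 to 1134 TPM and the heart and muscle form Cox6a2 from 0.27 to 11.9 TPM, which was 0.0264 to 2.28% of the pair. Cox7a2 ran from 250 to 324 TPM and the muscle form Cox7a1 from 0.47 to 2.19 TPM. Cox6b1 reached 375 to 748 TPM and the testis form Cox6b2 at most 1.19 TPM, with 0 counts in 3 of 4 ΔAgo2 libraries. Cox8a, the most abundant of all members by TPM (1001 to 1889), stood against 0 counts of the muscle form Cox8b in every library. A count of 0 in a library allows up to 3 counts, for counting error only. Cox7a2l, a factor of respiratory supercomplexes, ran from 399 to 696 TPM. No tested isoform gene passed the test between genotypes.

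**Figure D5:**
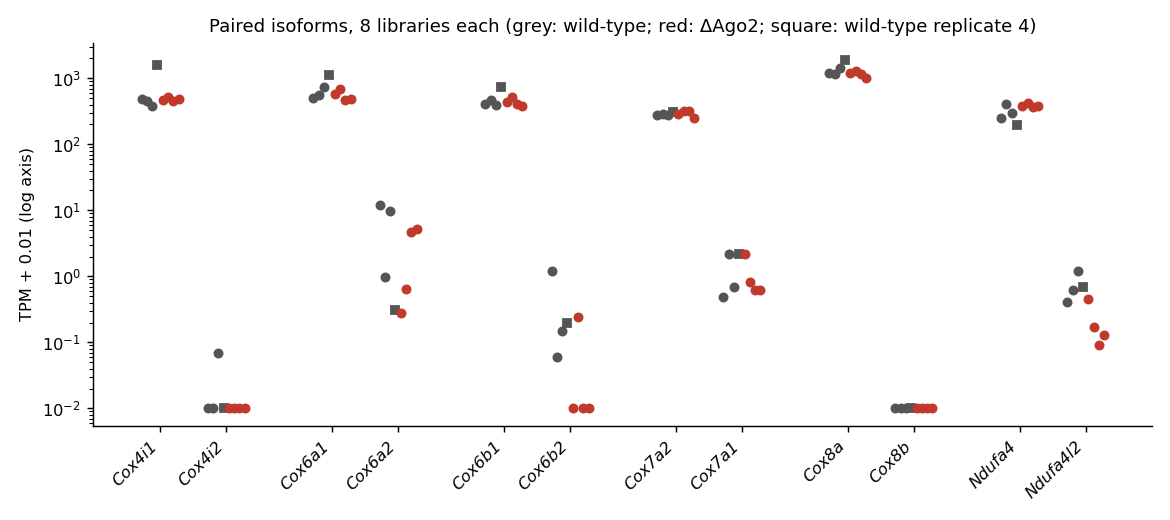
Each point is the TPM of a gene in 1 library on a log axis, with 0.01 added so that 0 can be drawn, for pairs of isoform genes in wild-type (grey, square for replicate 4) and ΔAgo2 (red). The left gene of each pair lies at or above 194 TPM in every library and the right gene at or below 11.9 TPM.

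Cox4i1 (chr8:120668222-120674207) had the highest deviation of replicate 4 of all members. It had 242, 181, 172 and 1095 CPM in wild-type and 195, 223, 206 and 212 CPM in ΔAgo2. Replicate 4 alone lay apart, and the other wild-type libraries spanned the ΔAgo2 values. The log2 fold change was -1.02 ± 0.57 (SE), and 0.080 ± 0.16 without replicate 4. Of its exon bases, 9.94% overlap Emc8 on the opposite strand, and the strand setting of the counting is not stated.

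Cox6a1, whose promoter is printed above, had the smallest p of complex IV (0.0911 unadjusted, edgeR). It had 116, 101, 154 and 359 CPM in wild-type and 108, 133, 96.1 and 96.9 CPM in ΔAgo2. Without replicate 4 the groups overlapped, and the log2 fold change moved from -0.75 ± 0.40 (SE) to -0.18 ± 0.19. Cox6a2 (chr7:128205435-128206387) had the fewest counts of any tested member. It had 2.62, 0.17, 1.93 and 0.093 CPM in wild-type and 0.049, 0.12, 0.96 and 1.00 CPM in ΔAgo2. Values near 0 occurred in both groups, and the log2 fold change was -1.19 ± 1.11 (SE). Cox8a, printed above for its promoter without either core, had 243, 187, 260 and 527 CPM in wild-type and 195, 223, 215 and 175 CPM in ΔAgo2, with a log2 fold change of -0.59, or -0.18 without replicate 4. Cox7b, a small subunit, moved from 0.051 to -0.093.

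Complex V had the smallest p of all members, in Atp5g1, 1 of 3 genes for the same mature c subunit of the rotor ring (chr11:96068852-96075670). It had 60.4, 100.4, 58.3 and 314 CPM in wild-type and 61.7, 70.2, 51.9 and 61.5 CPM in ΔAgo2. The genotypes overlapped, and replicate 4 was far above the other 7 libraries. The log2 fold change was -1.12 ± 0.52 (SE), and -0.25 ± 0.22 without replicate 4. The adjusted p was 0.678 (edgeR, Benjamini-Hochberg). Among the 3 genes, Atp5g1 gave 6.42 to 12.3% of the TPM, Atp5g2 34.1 to 50% and Atp5g3 41.3 to 54.6%. Atp5g2 moved from -0.68 to 0.016 and Atp5g3 from -0.43 to 0.11 when replicate 4 was left out.

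Atp5b, the catalytic beta subunit (chr10:128083273-128090391), was the member with the highest CPM. It had 1035, 1383, 1166 and 3310 CPM in wild-type and 1239, 1362, 1169 and 1253 CPM in ΔAgo2. The ΔAgo2 values lay inside the range of wild-type replicates 1 to 3. Its log2 fold change was -0.46 ± 0.39 (SE), and 0.076 ± 0.18 without replicate 4. Atp5f1, of the peripheral stalk, had the smallest p among complex V genes above 0, with a log2 fold change of 0.15, and 0.025 without replicate 4. Its transcripts have the lowest GC content of the tested members, 36.96%. The Atp5o gene model that was tested shares 12.3% of its exon bases with other gene models on the same strand and 35.6% on the opposite strand. The second Atp5o model had 0 counts. On the same strand, 100% of its exon bases are shared with the tested model or Donson. Its 0 counts thus do not say whether it is expressed.

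None of the other genes of the pathway passed the adjusted test. Of 6 tested genes of electron entry, 9 complex I assembly factors outside the rule, 4 of complex II, 6 of complex III, 21 of complex IV and 5 of ATP synthase assembly and inhibition, 0 had an adjusted p under 0.05 with all libraries or without replicate 4 (edgeR, Benjamini-Hochberg). Over all genes tested, 0.295% and 0.682% passed. At an unadjusted p under 0.05, 1, 1, 1, 2, 1 and 0 of them were lower in ΔAgo2, against 4.62% of all genes, and 0 were higher. Without replicate 4, 2, 0, 0, 1, 2 and 0 were lower, against 6.94%, and 1 was higher, against 5.53%. The higher gene was Atpaf1, with a log2 fold change of 0.52, and 0.49 without replicate 4 (unadjusted p = 0.0203, edgeR). The median log2 fold changes of the lists were -0.31, -0.37, 0.019, -0.38, -0.24 and 0.034, and 0.010, -0.28, -0.15, -0.24, -0.011 and 0.039 without replicate 4. Sqor, which passes electrons from sulfide to ubiquinone, had the smallest p of these lists, averaging 30.4 ± 14.0 CPM in wild-type and 7.77 ± 3.47 in ΔAgo2 (SD, n = 4, edgeR unadjusted p = 0.00139). Its log2 fold change was -1.97, and -1.73 without replicate 4, with an adjusted p of 0.173 in the fit of all libraries. It was named for its p, after its values were seen.

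Of the transcription factors and coactivators of the pathway, 0 of 13 passed in either fit, and of the genes that maintain and express mitochondrial DNA, 0 of 13. Of all genes tested, 0.295% passed with all libraries and 0.682% without replicate 4, so 0 of so few genes says little. The medians were 0.069 and -0.048, and -0.080 and -0.071 without replicate 4. Nrf1 had 33.4 to 51.4 CPM in wild-type and 46.9 to 51.4 CPM in ΔAgo2, with a log2 fold change of 0.21. Gabpa, the ETS subunit of GABP, had 53.3, 73.0, 83.3 and 14.1 CPM in wild-type and 64.4 to 77.2 CPM in ΔAgo2, and replicate 4 was its lowest library. Ppargc1a, a coactivator of mitochondrial biogenesis, was at 0.25 to 3.43 CPM in wild-type and 0.64 to 1.72 CPM in ΔAgo2, and Ppargc1b at 1.99 to 4.25 and 1.35 to 3.01 CPM. The log2 fold changes of Gabpa, Ppargc1a, Ppargc1b, Esrra and Tfam were 0.34, -0.34, -0.31, -0.42 and 0.44, and 0.021, -0.68, -0.43, -0.10 and 0.32 without replicate 4. Cycs, cytochrome c itself, had 52.7 to 82.8 CPM in wild-type and 68.8 to 83.7 CPM in ΔAgo2. Its log2 fold change was 0.18, or 0.19 without replicate 4. Of 16 tested genes of the tricarboxylic acid cycle, 0 passed in either fit, against the same shares of all genes. Their median was -0.11, or -0.052 without replicate 4.

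Markers of epithelial cells also stood out in replicate 4: the 5 summed to 270, 312, 114 and 1259 CPM in wild-type and 313 to 509 CPM in ΔAgo2, of which Krt8 and Krt18 made nearly all. The mesenchymal markers summed to 8469, 4889, 5614 and 8357 CPM in wild-type and 6838 to 7679 CPM in ΔAgo2, nearly all of it Vim and Fn1. Vim was highest in replicate 4 (6076 CPM), and Fn1 (2246 CPM) lay within the range of the other libraries. By contrast, Cdh2, Zeb1 and Zeb2 were lowest there, at 8.04, 17.2 and 9.72 CPM. The other libraries had 15.9 to 26.2, 42.9 to 93.7 and 44.1 to 116 CPM. Lung lineage, endothelial and muscle markers each summed to at most 1.32 CPM, and the 6 immune markers to 4.56 to 38.4 CPM, nearly all of it Cd68. Their part in the values of the oxidative phosphorylation genes was not tested.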

How the data were processed

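The 8 RNA-seq libraries of cultured LLC cells, 4 per genotype, were grouped by their labels. The authors prepared stranded mRNA libraries from total RNA, sequenced them in pairs, removed reads that aligned to ribosomal RNA, aligned the rest to mm10 (STAR in the submitters' processing notes) and used featureCounts for the gene counts. Deposited count values are unnormalized whole reads. The authors also deposited TPM, which scale counts by gene length and library total, and 99.7% of the lengths implied for 7372 well-counted genes lay within 5% of the summed exon length of GENCODE M21. The annotation release and the strand setting are not given in the sources used here, and 33 of the 94 members share exon bases with another gene, 11 of them over 10% on the opposite strand. Of the gene identifiers, 93 had no match in GENCODE M21, and 13 symbols that fit the rule but are not protein-coding were left out.

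Genes past filterByExpr (14228) were scaled with TMM. The test was the two-sided quasi-likelihood F-test of edgeR 4.0.16 in R 4.3.3, on genotype alone, and p-values were adjusted over all genes tested (Benjamini-Hochberg). Standard errors were derived from the fold change and F. CPM use TMM-scaled library sizes. GC content and length are those of the longest transcript. limma 3.58.1 and DESeq2 1.42.0 served for alternatives, which were DESeq2, other scalings and filters, limma on TPM, sample weights, offsets for GC content and length, a replicate block and each library left out. DESeq2 without wild-type replicate 4 was added after that library was seen to stand apart. The edgeR fit was checked on simulated counts with known fold changes. These held no library that stood apart, so the check does not cover a library such as wild-type replicate 4. Totals ran from 39628101 to 68530912 counts, and 85 of the 86 tested members had over 100 counts in every library.

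The members and gene lists were chosen with earlier results of these data known. The genes named are, in each class, the smallest p in each direction and the highest mean TPM, the complex II subunits, the isoform sets, the c subunit genes, Cycs, Cyc1 and 6 regulators (Ppargc1a, Ppargc1b, Nrf1, Gabpa, Esrra, Tfam). Ndufs1, Ndufs8, Ndufv1, Ndufb8, Ndufc1, Ndufa6, Ndufb5, Ndufs5, Ndufaf1, Ndufaf4, Ndufb2, Sqor, Atpaf1 and the named mitochondrial genes were added after their values were seen. Promoters came from RefSeq tables on GRCm38.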

Additional observations from a re-analysis of the deposited data

Results flagged for a closer look

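Of 64 groups of 4 libraries examined for a library far from the other 3, 10 stood out, where chance gives about 1 in 20. Each value is the gap from the farthest library to its nearest neighbour, divided by the group's range. In 9 of the 10 the group was wild-type and the far library was replicate 4, the highest in each. They were the log2 CPM of Ndufb10 (0.8765), Sdhb (0.9073) and Cox6b1 (0.8818), the summed CPM of complex I (0.9324), complex II (0.8847), complex III (0.9241), complex IV (0.8379) and complex V (0.9037), and the ratio of nuclear-encoded to mitochondrially encoded counts (0.9552). The other was the log2 CPM of Atp5g3 in ΔAgo2 (0.8345), where replicate 2 lay highest, at 213 CPM against 166 to 173 CPM in the other ΔAgo2 libraries. These groups share libraries and genes and are not independent.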

How the results depend on the processing

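The number of members past an adjusted p of 0.05 was 0 in the main analysis and under all 21 alternatives. Over all genes, the number past this threshold ran from 1 without ΔAgo2 replicate 1 to 590 with DESeq2 without wild-type replicate 4. Where few genes passed, 0 members says little. The smallest adjusted p of a member ran from 0.157 (limma-voom with sample weights) to 0.984. Numbers lower in ΔAgo2 at an unadjusted p under 0.05 were 2 with DESeq2 (6.15% of all genes), 2 with DESeq2 without wild-type replicate 4 (8.23%), 3 with no filter on low counts (4.98%), 5 with sample weights (8.48%), 5 with the GC offset (5.88%), 6 with the GC and length offset (6.21%), and 0 to 10 with 1 library left out (2.85 to 8.18%). Fold changes above 0 numbered 25 with limma on TPM with either pseudocount (66.0 and 67.9% of all genes), 23 with sample weights (49.5%) and 5 with the GC offset (41.0%). There were 6 with the GC offset and the replicate block (48.5%), 30 with DESeq2 without replicate 4 (45.3%), and 9 to 31 with 1 library left out (39.2 to 46.1%). TPM moved the median of all genes to 0.15 or 0.22 with a pseudocount of 1 or 0.1, from -0.11, and the assembly factors' median to -0.050 with either. The median of complex II was -0.1485 with DESeq2 without replicate 4 and -0.6341 to -0.1464 with 1 library left out. That of complex III was -0.088 with sample weights, -0.048 with DESeq2 without replicate 4 and -0.7219 to -0.0455 with 1 library left out. The causes were not tested.

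Log2 fold changes of single genes changed sign as follows, none past the threshold: Sdha (-0.0040), Uqcrb (-0.0070), Cox7b (-0.21), Atp5b (0.14) and Atp5g3 (0.12) with sample weights, Ndufa4 (-0.41), Sdha (-0.053), Uqcrb (-0.29), Cox7b (-0.34) and Atp5f1 (-0.56) with the GC offset, Ndufa4 (-0.24), Sdha (-0.037), Uqcrb (-0.16), Cox7b (-0.23) and Atp5f1 (-0.46) with the GC and length offset, Ndufa4 (-0.096), Sdha (-0.031), Uqcrb (-0.22), Cox7b (-0.28) and Atp5f1 (-0.25) with the GC offset and replicate block, Ndufaf8 (0.062), Sdha (-0.14), Uqcrb (-0.069), Cox4i1 (0.076), Cox7a2 (0.021), Cox7b (-0.095), Atp5b (0.075), Atp5g2 (0.012) and Atp5g3 (0.11) with DESeq2 without wild-type replicate 4, Cox7a2 (0.031) with limma on TPM and a pseudocount of 1, Cox7a2 (0.032) with a pseudocount of 0.1. Those that changed sign with 1 library left out ranged as follows: Ndufaf8 (-0.65 to 0.065), Sdha (-0.13 to 0.14), Uqcrb (-0.067 to 0.22), Cox4i1 (-1.29 to 0.080), Cox7a2 (-0.33 to 0.025), Cox7b (-0.093 to 0.15), Atp5b (-0.64 to 0.076), Atp5g2 (-0.91 to 0.016) and Atp5g3 (-0.65 to 0.11).

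The replicate numbers do not pair the libraries: the correlations of same-numbered deviations were -0.14, -0.049, 0.38 and 0.028, and 1 of 4 wild-type libraries correlated best with its own number. With the replicate block 0 members passed, the median was -0.31, 13 lay above 0, and 18 genes of the whole table passed, against 42 without it. The low counts of Cox6a2 and of the untested isoforms limit what can be said of them.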
